A study of Equus asinus with 2 samples.

Results

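C1Q-high tissue macrophages of the fetal donkey were taken as the cell barcodes whose C1QA, C1QB and C1QC UMIs together came to at least 10 per 10000 UMIs, with at least 2 of the 3 genes detected. A UMI is a molecular tag that counts 1 captured transcript. Only barcodes with at least 1000 UMIs were considered. In all, 955 of 21629 barcodes met the rule. They were thus chosen by their C1q UMIs, so every C1q level given here, and every comparison of these cells with other barcodes, is a description without a test.

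The cells came from 2 droplet single-cell RNA libraries of donkey, Equus asinus. The 8-week library is labelled as ovarian tissue and the 4-week library as mesonephric and gonadal tissue, where weeks are weeks of gestation and the mesonephros is the transient kidney beside the early gonad. Neither group carried a mutation or treatment that the labels name, and both share the same dissociation with collagenase IV and DNase I after storage of up to 48 h. The number of fetuses behind each library is not stated, and each stage is 1 library, so stage, tissue, fetus and library cannot be told apart and no difference between stages has a test.

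Tissue macrophages seed fetal organs early, engulf dying cells and debris, digest them in lysosomes and signal to neighbouring cells through cytokines and growth factors. C1q is the recognition unit of the classical complement pathway. It is built of A, B and C chains that assemble together, it binds antibody complexes and dying cells, and macrophages are a main source of it. In mice, macrophages of the fetal gonad are known for clearing cells and for a part in shaping gonadal vessels.

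The 8-week library held 826 of these macrophages among 13172 barcodes, a share of 6.27% (95% Clopper-Pearson interval 5.86 to 6.70). The 4-week library held 129 among 8457, a share of 1.53% (1.28 to 1.81). All intervals given here cover counting error only. The macrophages had a median of 5458.5 UMIs and 2248 genes at 8 weeks, and of 6025 UMIs and 2528 genes at 4 weeks. All other barcodes had medians of 6785.5 UMIs at 8 weeks and 8344.5 at 4 weeks. Summed over the macrophages, 5621595 UMIs at 8 weeks and 969597 at 4 weeks stood behind the levels below.

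Several features of the libraries touch these results. No doublet caller was run. At 8 weeks 152 of the 826 macrophages, 18.4% (15.8 to 21.2), also had at least 2 stroma markers at 5 or more per 10000 UMIs, and those 152 had a median of 9642 UMIs. At 4 weeks 1 of the 129 did. Counting the markers of 7 other cell types, 173 macrophages (20.9%, 18.2 to 23.9) at 8 weeks and 10 (7.75%, 3.78 to 13.8) at 4 weeks carried such a pair. The libraries shared 38 barcode sequences, of which 2 at 8 weeks and 1 at 4 weeks were macrophages. The labels call the cell type germ cells and the 8-week tissue ovarian, while 635 barcodes at 8 weeks and 499 at 4 weeks were Sertoli-gated, that is with AMH at 20 or more per 10000 UMIs and a UMI of SOX9. Those barcodes are used below as a type that should lack macrophage genes, at median depths of 18059 and 17185 UMIs.

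The C1q chains formed a high range with a mode of its own in both libraries. Among the 8-week macrophages the 3 chains together had a median of 81.7 per 10000 UMIs, with a lowest value of 10.3 and a highest of 324. Among the 4-week macrophages the median was 57.3, the lowest 11.9 and the highest 339. All 3 chains were detected in 782 (94.7%, 92.9 to 96.1) of the 8-week macrophages and in 116 (89.9%, 83.4 to 94.5) of the 4-week ones. Some cells lay near the limit of 10, and neither library had an empty range there. At 8 weeks 20 macrophages lay between 10 and 15 and 133 other barcodes between 5 and 10, the nearest at 9.93, and 10 others passed 10 with 1 chain alone. At 4 weeks 7 macrophages lay between 10 and 15, and 13 other barcodes lay between 5 and 10, the nearest at 9.76. A stray C1q UMI was seen in 1690 (13.7%) of the other barcodes at 8 weeks and in 247 (2.97%) at 4 weeks, with a median of 1 UMI in each.

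**Figure D1:**
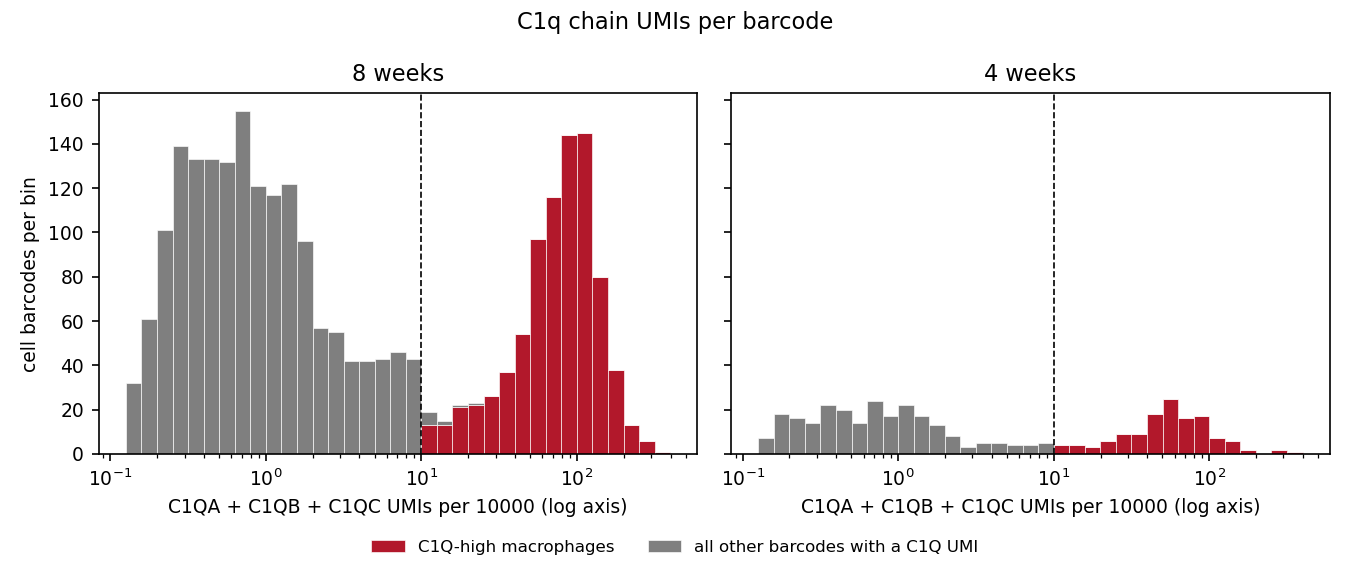
Distribution of C1QA, C1QB and C1QC UMIs per 10000 UMIs (log axis) over cell barcodes with at least 1 C1q UMI, as barcodes per bin, in the 8-week (left) and 4-week (right) library; the dashed line is the limit of 10. The macrophages (red) form a mode near their medians of 81.7 at 8 weeks and 57.3 at 4 weeks, apart from the mode of other barcodes (grey) with few C1q UMIs.

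Each level below pools all cells of a group and is in CPM, which scales a gene's UMIs to a total of 1000000. C1QA, the A chain, stood at 3089.5 CPM at 8 weeks and 2648 at 4 weeks in the macrophages (exact Poisson intervals 3044 to 3136 and 2546 to 2752), against 8.12 and 1.75 in all other barcodes. C1QB stood at 2904 at 8 weeks and 2289.6 at 4 weeks, against 8.4 and 1.24. C1QC stood at 1217 at 8 weeks and 1036 at 4 weeks, against 2.85 and 0.289. All 3 chains were slightly higher at 8 weeks, by 1.17-fold (1.12 to 1.22), 1.27-fold (1.21 to 1.33) and 1.18-fold (1.1 to 1.26), where the brackets are exact conditional binomial intervals of the ratio. In the RefSeq gene table of the donkey the 3 chain genes are direct neighbours, between EPHB2 and EPHA8.

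The cells carried the markers of macrophages in both libraries. Of 20 pan-macrophage genes, 19 were measured, meaning at least 20 UMIs over the macrophages of both libraries, and 19 of these were at least 2-fold higher in the macrophages than in all other barcodes in both libraries. Over all 12980 genes measured, 1481 (11.4%) were at least 2-fold higher in the macrophages in both libraries and 2083 (16%) at least 2-fold lower. ADGRE1, which encodes the antigen F4/80 of mouse macrophages, was the gene with too few UMIs, 2 at 8 weeks and 6 at 4 weeks. CSF1R, the receptor for the macrophage growth factors CSF1 and IL34, stood at 657 CPM at 8 weeks and 703 at 4 weeks, against 5.71 and 2.74 in all other barcodes. TYROBP, a signalling adaptor of myeloid cells, stood at 1150.0 at 8 weeks and 1006 at 4 weeks, against 7.94 and 3.52. CYBB, the catalytic subunit of the phagocyte oxidase, stood at 404 at 8 weeks and 506 at 4 weeks, against 1.43 and 2.42. SPI1, which encodes the myeloid factor PU.1, stood at 220.0 at 8 weeks and 227 at 4 weeks, against 1.6 and 1.17.

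The closest other cells were leukocytes lacking C1Q, taken as barcodes with at least 2 UMIs of PTPRC, the pan-leukocyte phosphatase CD45, and less than 2 C1q UMIs per 10000. There were 91 of these at 8 weeks and 149 at 4 weeks. Against them 1082 genes (8.34%) were at least 2-fold higher in the macrophages in both libraries and 1042 (8.03%) at least 2-fold lower. Of the 19 pan-macrophage genes measured, 17 were at least 2-fold higher in the macrophages than in these leukocytes. PTPRC, which chose the leukocytes, was 218 at 8 weeks and 287 at 4 weeks in the macrophages, against 341 and 359 in the leukocytes. The monocyte and granule list was mixed. Of its 16 genes 15 were in the files and 6 reached 20 UMIs in the macrophages. Of these, 3 were at least 2-fold higher and 1 lower than in all other barcodes in both libraries, and 1 was at least 2-fold higher and 2 lower than in the leukocytes. S100A9, a calcium-binding protein of neutrophils and monocytes, had 0 UMIs in the macrophages of both libraries, where the limit that a count of 0 allows is 3 UMIs, against 184 CPM at 8 weeks and 626 at 4 weeks in the leukocytes. S100A8 had 2 UMIs in the 8-week macrophages and 0 in the 4-week ones, against 125 and 476 CPM in the leukocytes. LYZ, lysozyme, had 1 UMI in the macrophages of each library, against 158 and 359 CPM in the leukocytes. MPO and ELANE, enzymes of neutrophil granules, had 0 UMIs in the macrophages of both libraries, against 0 and 0.404 CPM of MPO and 1.99 and 10.9 CPM of ELANE in the leukocytes. CCR2, the receptor that brings monocytes out of the marrow, was present at 74.4 at 8 weeks and 84.6 at 4 weeks in the macrophages, against 16.6 and 15 in the leukocytes.

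Lymphoid and mast cell genes were low in the macrophages, apart from IL7R. Of the 16 T, NK and B cell genes in the files, 5 reached 20 UMIs, and the list summed to 89.8 CPM at 8 weeks and 164 at 4 weeks. Most of that sum was IL7R, the interleukin 7 receptor, at 50.9 at 8 weeks and 131 at 4 weeks, held by 133 and 38 macrophages. CD79B and MS4A1, genes of B cells, were at 0. NKG7, a gene of cytotoxic lymphocytes, was at 1.07 at 8 weeks and 0 at 4 weeks, against 100.1 and 86.5 in the leukocytes. CPA3, a protease of mast cells, was at 0. The dendritic list was not absent. Of its 11 genes in the files 5 reached 20 UMIs, and 1 was at least 2-fold higher and 1 lower than in all other barcodes in both libraries. The list summed to 258 CPM at 8 weeks and 262 at 4 weeks, against 521 and 574 in all other barcodes. BATF3, a gene of this list, had 172 UMIs in 136 macrophages at 8 weeks and 21 UMIs in 17 at 4 weeks. FCER1A and LAMP3 were at 0, and XCR1 had 1 UMI at 8 weeks and 0 at 4 weeks.

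Markers of the gonad and its vessels were below their level in all other barcodes for most lists, at sums that were not 0. The germ cell list summed to 183 CPM at 8 weeks and 223 at 4 weeks in the macrophages, against 260.3 and 291 in all other barcodes, and DPPA3 was at 0 in the macrophages. Of its 6 measured genes, 1 was at least 2-fold higher and 4 at least 2-fold lower than in all other barcodes in both libraries. The Sertoli list summed to 315 and 281, against 972 and 803. The steroidogenic list summed to 411 and 770.4, against 1739 and 1143. At 4 weeks the Sertoli and steroidogenic sums rested in large part on single cells. There 1 macrophage held 111 of 129 AMH UMIs, and 2 others held 178 and 112 of 319 CYP17A1 UMIs. The endothelial list summed to 356 and 536, against 261 and 1111, so that its sum was higher in the macrophages at 8 weeks. The median log2 ratio of its 12 genes over all other barcodes was nonetheless -0.61 at 8 weeks and -1.61 at 4 weeks. The erythroid list summed to 9.25 and 30.9, against 38.6 and 422, with GATA1 and SLC4A1 at 0 in the macrophages. The smooth muscle and pericyte list summed to 307 and 107, against 893 and 342. The megakaryocyte list summed to 7.29 and 7.22, with PPBP at 0 in the macrophages.

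**Figure D2:**
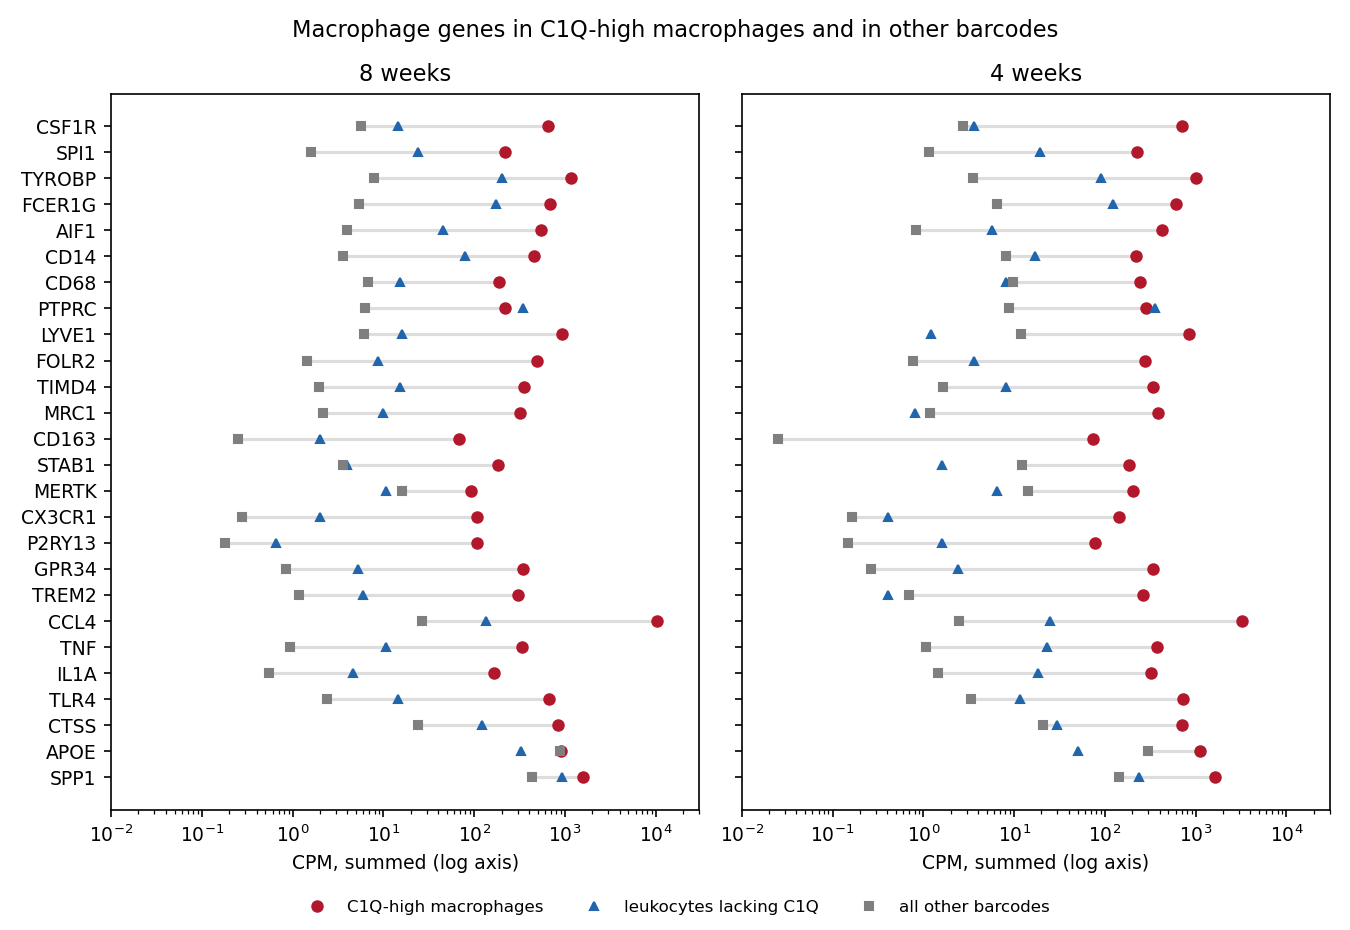
CPM (log axis), summed over C1Q-high macrophages (red circles), leukocytes lacking C1Q (blue triangles) and all other barcodes (grey squares), for 26 macrophage genes in the 8-week (left) and 4-week (right) library. Macrophages lie to the right of both other groups in most rows, except PTPRC, which chose the leukocytes, and APOE at 8 weeks; CD163 had 0 UMIs in the 4-week leukocytes and is not drawn there.

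The 25 genes with the highest ratio over all other barcodes, ranked by the lower of the library ratios among genes at 100 or more CPM in both, included the 3 C1q chains. Of the 25, 18 had a symbol. GPR34, a receptor for lysophosphatidylserine, was higher by 408-fold at 8 weeks and 1295-fold at 4 weeks. CX3CR1, the receptor for the chemokine CX3CL1, was higher by 388-fold at 8 weeks and 855-fold at 4 weeks. Both genes are known from microglia, the macrophages of the brain. DCSTAMP, a membrane protein of cell fusion in osteoclasts and giant cells, was higher by 349.9-fold at 8 weeks and 843-fold at 4 weeks. PILRA, an inhibitory receptor of myeloid cells, was higher by 300.4-fold at 8 weeks and 479-fold at 4 weeks. CD86, a costimulatory ligand for T cells, was higher by 259.6-fold at 8 weeks and 550.1-fold at 4 weeks. ALOX5AP, which serves leukotriene synthesis, was higher by 222-fold at 8 weeks and 224-fold at 4 weeks. The others named by this ranking were CCL4, CCL15, TNF, IL1A and IL1RN among the cytokines, MS4A6A, FOLR2, TREM2 and TLR4.

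Receptors of resident and scavenging macrophages were broadly present. Of 16 measured genes of this list, 14 were at least 2-fold higher than in all other barcodes in both libraries, 0 were lower, and 12 were at least 2-fold higher than in the leukocytes lacking C1Q. LYVE1, a hyaluronan receptor, stood at 918 CPM at 8 weeks and 845 at 4 weeks, with 725 and 109 macrophages holding a UMI. TIMD4, a receptor for phosphatidylserine on dying cells, stood at 355 at 8 weeks and 336 at 4 weeks. FOLR2, the folate receptor beta, stood at 495 at 8 weeks and 275 at 4 weeks. Together LYVE1, TIMD4 and FOLR2 are the usual signature of long-lived resident macrophages in mice. MRC1, the mannose receptor, stood at 320.2 at 8 weeks and 383 at 4 weeks, and STAB1, the scavenger receptor stabilin-1, at 183 at 8 weeks and 186 at 4 weeks. CD163, which takes up haemoglobin bound to haptoglobin, stood at 67.4 at 8 weeks and 73.2 at 4 weeks, against 0.249 and 0.0248 in all other barcodes. F13A1 had 4 UMIs at 8 weeks and 3 at 4 weeks.

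The microglia list was mixed. Of 13 measured genes, 9 were at least 2-fold higher and 3 at least 2-fold lower than in all other barcodes in both libraries. P2RY13, a receptor for ADP, stood at 108 at 8 weeks and 77.4 at 4 weeks, against 0.182 and 0.149, and P2RY12, a related receptor, at 72.8 at 8 weeks and 39.2 at 4 weeks, against 0.317 and 0.653. TREM2, a lipid-sensing receptor, stood at 302 at 8 weeks and 265 at 4 weeks, against 1.18 and 0.702. The lower genes were TMEM119, SPARC and OLFML3, which the other barcodes carried at higher levels. SALL1, a transcription factor of mouse and human microglia, had 4 UMIs at 8 weeks and 0 at 4 weeks, where up to 3 would be allowed by a count of 0.

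Lipid genes were split between shared and macrophage-rich members. Of 16 measured, 9 were at least 2-fold higher and 1 at least 2-fold lower than in all other barcodes in both libraries. CD36, a scavenger receptor for fatty acids and oxidised lipoproteins, stood at 88.2 at 8 weeks and 212 at 4 weeks, against 0.788 and 0.835. PLTP, the phospholipid transfer protein, stood at 312 at 8 weeks and 268 at 4 weeks, against 96.8 and 38. APOE, the lipoprotein component, stood at 909.9 at 8 weeks and 1120.1 at 4 weeks, against 886 and 299.8, so that it was near the level of all other barcodes at 8 weeks and 3.74-fold higher at 4 weeks. FABP5 stood at 1198 at 8 weeks and 1464 at 4 weeks, against 1511 and 936. SPP1, osteopontin, stood at 1592 at 8 weeks and 1639 at 4 weeks, against 429.9 and 145, with 10.5% and 13.9% of its UMIs in a single macrophage of each library. APOC1 had 0 UMIs in the macrophages of both libraries.

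Beyond the C1q chains, receptors for complement fragments stood well above all other barcodes, and the C1 proteases were low. Of 15 measured genes 7 were at least 2-fold higher and 4 at least 2-fold lower than in all other barcodes in both libraries. C3AR1, the receptor for the fragment C3a, stood at 83.4 at 8 weeks and 72.2 at 4 weeks, against 0.35 and 0.231. C5AR1, the receptor for C5a, stood at 69 at 8 weeks and 89.7 at 4 weeks, against 0.492 and 0.38. VSIG4, a receptor for C3b and iC3b, stood at 37.7 at 8 weeks and 16.5 at 4 weeks, against 0.162 and 0.00826. CFP, properdin, which stabilises the alternative pathway convertase, stood at 57.5 at 8 weeks and 53.6 at 4 weeks, against 1.27 and 1.83. C1R and C1S, the proteases that join C1q in the C1 complex, were low: C1R had 31 and 1 UMIs and C1S had 17 and 6 UMIs, at 8 and 4 weeks. SERPING1, the inhibitor of those proteases, stood at 55.5 at 8 weeks and 48.5 at 4 weeks, against 199 and 299.6 in all other barcodes. CFB had 0 UMIs in the macrophages.

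Genes for taking up dying cells were split, with most receptors higher and the bridging ligands lower. Of 24 measured, 16 were at least 2-fold higher and 4 at least 2-fold lower than in all other barcodes in both libraries. The lower ones were TYRO3, GAS6, PROS1 and MFGE8, of which the last 3 are soluble bridges between phosphatidylserine and its receptors. MERTK, a receptor kinase for GAS6 and PROS1, stood at 93.2 at 8 weeks and 204 at 4 weeks, against 15.9 and 14.2. DOCK2, an activator of RAC in blood cells, stood at 88.2 at 8 weeks and 203 at 4 weeks, against 3.11 and 4.47. ELMO1, the partner of DOCK proteins in engulfment, stood at 233 at 8 weeks and 498 at 4 weeks, against 51.7 and 122. P2RY6, a nucleotide receptor, stood at 16.2 at 8 weeks and 33 at 4 weeks, against 0.189 and 0.397. FCGR1A, the high-affinity IgG receptor, stood at 164 at 8 weeks and 60.9 at 4 weeks, against 0.559 and 0.0992.

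Lysosomal genes were higher in the macrophages for 22 of 34 measured and at least 2-fold lower for 0. CTSS, cathepsin S, stood at 834 at 8 weeks and 709.6 at 4 weeks, against 24 and 20.9. NPC2, which carries cholesterol out of the lysosome, stood at 1675 at 8 weeks and 1516 at 4 weeks, against 123 and 139. DNASE2, which digests DNA of engulfed cells, stood at 153 at 8 weeks and 139 at 4 weeks, against 8.62 and 6.21. HEXA, a subunit of beta-hexosaminidase, stood at 67.8 at 8 weeks and 131 at 4 weeks, against 3.39 and 6.77. LIPA, the lysosomal acid lipase, was an exception at 27.8 at 8 weeks and 32 at 4 weeks, against 50.4 and 36.4.

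In the iron and haem list 4 of 13 measured genes were at least 2-fold higher than in all other barcodes in both libraries. FTL, the ferritin light chain, stood at 10091 at 8 weeks and 10020.0 at 4 weeks, against 1073 and 1254. HMOX1, haem oxygenase 1, stood at 357 at 8 weeks and 511 at 4 weeks, against 72.3 and 59.8. SLC40A1, the iron exporter ferroportin, stood at 58.3 at 8 weeks and 151 at 4 weeks, against 32.2 and 37.2. SPIC, a factor of iron-recycling macrophages in mice, had 3 UMIs at 8 weeks and 10 at 4 weeks, where all came from 1 macrophage.

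The chemokine and cytokine list summed to 11757.5 CPM at 8 weeks and 4866 at 4 weeks in the macrophages, and most of that sum was CCL4. Of 18 measured, 17 were at least 2-fold higher than in all other barcodes in both libraries and 12 at least 2-fold higher than in the leukocytes lacking C1Q. Some chemokines rested on few cells. A single macrophage held 34 of 35 CCL17 UMIs at 8 weeks, and another held 17 of 20 CCL5 UMIs at 4 weeks. CCL4, which attracts monocytes and lymphocytes, stood at 10239 CPM at 8 weeks and 3264 at 4 weeks in the macrophages, against 26.3 and 2.46 in all other barcodes and 135 and 25.1 in the leukocytes. TNF stood at 334 at 8 weeks and 376 at 4 weeks, against 0.93 and 1.06 in all other barcodes. IL1A, interleukin 1 alpha, stood at 166 at 8 weeks and 321 at 4 weeks, and IL1RN, the antagonist of its receptor, at 363 at 8 weeks and 195 at 4 weeks. IL18 stood at 238 at 8 weeks and 175 at 4 weeks, against 43.6 and 12.9. IL10, an anti-inflammatory cytokine, was low at 6.05 at 8 weeks and 11.3 at 4 weeks, with 23 and 9 macrophages holding a UMI. CXCL12, the stromal ligand of CXCR4, was the listed chemokine that was lower in the macrophages, at 124 at 8 weeks and 19.6 at 4 weeks, against 338 and 87.2. LOC106844630, a protein-coding locus without a symbol that was singled out after its values were seen, stood at 13860.0 at 8 weeks and 4513 at 4 weeks, against 113 and 26.6. CCL4 lies among several related chemokine loci, 2 of them next to it without a symbol, and how reads shared by near-identical copies were counted is not given in the sources used here. The same holds for UBB, FTL, FCGR1A and H1-2, which also have close relatives.

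The dissociation and storage of the tissue are known to switch on early-response genes, and these were present in all cell groups. Of 29 measured genes of the early-response and heat-shock list, 13 were at least 2-fold higher in the macrophages than in all other barcodes in both libraries and 6 at least 2-fold higher than in the leukocytes. FOS stood at 1779.7 at 8 weeks and 1390.3 at 4 weeks, against 1242 and 798 in all other barcodes. IER3, a target of NF-kappa-B, stood at 1249 at 8 weeks and 1087 at 4 weeks, against 62.5 and 63.8. ATF3 stood at 638 at 8 weeks and 670.4 at 4 weeks, against 95.6 and 229. The part of this response in the cytokine levels was not tested.

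Growth factors were divided. Of 25 measured, 7 were at least 2-fold higher and 8 at least 2-fold lower than in all other barcodes in both libraries. HBEGF, a ligand of the EGF receptor, stood at 430.5 at 8 weeks and 624 at 4 weeks, against 28.7 and 78.9. BMP2 stood at 118 at 8 weeks and 174 at 4 weeks, against 3.89 and 17.1. IGF1 stood at 79.2 at 8 weeks and 144 at 4 weeks, against 6.7 and 25.6, and 0 UMIs of it were seen in the 8-week leukocytes. IGF2 stood at 781 at 8 weeks and 626 at 4 weeks, against 2850.1 and 3909, and so was lower in the macrophages. The lower genes also included PDGFA, PDGFC, VEGFC, BMP4, FGF13 and WNT5A.

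Receptors and factors of macrophage identity were present alongside. Of 26 measured cytokine receptors, 18 were at least 2-fold higher than in all other barcodes in both libraries. CSF2RA, a subunit of the GM-CSF receptor, stood at 209 at 8 weeks and 195 at 4 weeks, against 2.65 and 0.975. Of 20 measured innate sensors, 17 were at least 2-fold higher. TLR4, the sensor of bacterial lipopolysaccharide, stood at 665 at 8 weeks and 725 at 4 weeks, against 2.4 and 3.36. NLRP3, an inflammasome sensor, stood at 51.2 at 8 weeks and 74.3 at 4 weeks, against 0.162 and 0.273. Of 29 measured transcription factors, 19 were at least 2-fold higher and 2 at least 2-fold lower. RUNX1, a factor of blood development, stood at 586 at 8 weeks and 847 at 4 weeks, against 31.7 and 48.9.

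Antigen presentation genes were higher in 12 of 13 measured, and 5 of them were also at least 2-fold higher than in the leukocytes lacking C1Q. CD74, the invariant chain of class II molecules, stood at 692 at 8 weeks and 974 at 4 weeks, against 38.2 and 96.8. CIITA, the activator of class II genes, had 31 UMIs at 8 weeks and 8 at 4 weeks. Of 18 measured interferon response genes 15 were at least 2-fold higher than in all other barcodes in both libraries. IFI6 stood at 2103 at 8 weeks and 1660.5 at 4 weeks, against 151 and 168, and MX2 at 18.7 at 8 weeks and 30.9 at 4 weeks, against 0.323 and 0.281. Of 28 measured actin and migration genes, 18 were at least 2-fold higher. Ribosomal proteins gave 0 of 51 higher and glycolysis genes 1 of 24.

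Some growth factors that act on macrophages were measured in the macrophages themselves. CSF1 stood at 59.8 at 8 weeks and 129.9 at 4 weeks in the macrophages, against 13.6 and 11.6 in all other barcodes. IL34, the other ligand of CSF1R, had 6 UMIs at 8 weeks and 1 at 4 weeks in the macrophages, and stood at 6.4 CPM at 8 weeks and 2.76 at 4 weeks in all other barcodes. CX3CL1, the ligand of CX3CR1, stood at 3.74 at 8 weeks and 3.09 at 4 weeks, against 12.1 and 20.5.

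Between the stages 1480 genes (11.4%) were at least 2-fold higher and 1193 (9.19%) at least 2-fold lower in the macrophages at 8 weeks than at 4 weeks, on sums with 0.5 UMI added. In all other barcodes 818 (6.3%) were at least 2-fold higher and 1164 (8.97%) at least 2-fold lower. Of the genes higher in the macrophages, 458 were also higher in all other barcodes and 30 were lower there. Of the genes lower in the macrophages, 503 were also lower in all other barcodes and 14 were higher there. The counting interval lay wholly past 2-fold for 247 higher and 290 lower genes. The median log2 ratio over all genes was -0.03 in the macrophages and -0.03 in all other barcodes. With scaling by median of ratios every log2 ratio was 0.12 higher, and 1762 genes were at least 2-fold higher and 923 lower.

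Stroma markers differed with the stage. All 11 stroma genes were at least 2-fold higher at 8 weeks in the macrophages, with a median log2 ratio of 2.53, against 1.83 in all other barcodes. The list summed to 2008 CPM at 8 weeks and 365 at 4 weeks in the macrophages, against 6677 and 1734 in all other barcodes. DCN, decorin, stood at 412 at 8 weeks and 36.1 at 4 weeks in the macrophages. Without the macrophages that carried 2 or more markers of another cell type, 844 genes were at least 2-fold higher at 8 weeks and 1217 lower. The part of stroma RNA in the other genes was not tested. Kidney markers ran the other way, with 6 of 8 at least 2-fold lower at 8 weeks in the macrophages and 8 in all other barcodes. The kidney list summed to 31.3 CPM at 8 weeks and 323 at 4 weeks in the macrophages, against 75.1 and 1100.3 in all other barcodes.

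CCL4 was 1 of the 12 genes with the highest ratio of 8 over 4 weeks by the naming rule. CCL4 was 3.14-fold higher at 8 weeks (3.03 to 3.25) in the macrophages, and 10.7-fold higher in all other barcodes. With every barcode thinned to 1000 UMIs, 78.8% (75.9 to 81.5) of the macrophages had a CCL4 UMI at 8 weeks and 65.1% (56.2 to 73.3) at 4 weeks. In the Sertoli-gated barcodes the shares were 1.89% and 0%. Unthinned, the macrophage shares were 84.6% and 84.5%.

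Several surface receptors were also higher at 8 weeks. MS4A4A, a tetraspan membrane protein of macrophages, stood at 272 at 8 weeks and 89.7 at 4 weeks, a ratio of 3.03-fold (2.44 to 3.81). Its thinned share was 27.9% (24.8 to 31) at 8 weeks and 8.53% (4.33 to 14.8) at 4 weeks. MS4A6A, of the same family, stood at 918 at 8 weeks and 382 at 4 weeks, a ratio of 2.4-fold (2.16 to 2.68). The Fc receptor FCGR1A was higher by 2.7-fold (2.08 to 3.58), with thinned shares of 15% (12.6 to 17.6) at 8 weeks and 5.43% (2.21 to 10.9) at 4 weeks. The complement receptor VSIG4 was higher by 2.29-fold (1.38 to 4.07), and its log2 ratio was 0.27 with each macrophage thinned to 1000 UMIs. CD14, the co-receptor for lipopolysaccharide, stood at 452 at 8 weeks and 221 at 4 weeks, a ratio of 2.05-fold (1.78 to 2.36). When thinned, the log2 ratios of CD14 and MS4A6A were 0.54 and 0.94, both under 2-fold. FOLR2 was higher by 1.8-fold (1.59 to 2.05), which is under 2-fold. In all other barcodes MS4A4A was 30.4-fold, FCGR1A 5.64-fold, MS4A6A 4.82-fold and FOLR2 1.85-fold higher at 8 weeks, so these rises were not particular to the macrophages. The other barcodes at 4 weeks held 4 UMIs of MS4A4A and 12 of FCGR1A. CD14 went the other way there, with a log2 ratio of -1.17.

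Of the 12 genes with the highest ratio by the naming rule 8 had a symbol. UBB, polyubiquitin B, stood at 6734 at 8 weeks and 2459 at 4 weeks, a ratio of 2.74-fold (2.63 to 2.86), and was 2.56-fold higher in all other barcodes. ATF4, a factor of the integrated stress response, stood at 499 at 8 weeks and 188 at 4 weeks, a ratio of 2.66-fold (2.29 to 3.11), and was 1.38-fold higher in all other barcodes. MAFF, a small MAF factor, was higher by 2.81-fold (2.18 to 3.68), SFT2D1, a vesicle transport protein, by 2.88-fold (2.42 to 3.46), and RPL22L1, a ribosomal protein paralogue, by 2.79-fold (2.28 to 3.45). In all other barcodes the ratios of 8 over 4 weeks were 0.744-fold for MAFF, 3.07-fold for SFT2D1 and 1.7-fold for RPL22L1. B2M, the light chain of class I molecules, stood at 4192 at 8 weeks and 2059 at 4 weeks, a ratio of 2.04-fold (1.95 to 2.13), with a log2 ratio of 0.92 when the C1q limit was 5 per 10000. LOC106844630 was higher by 3.07-fold (2.98 to 3.17).

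Of the 12 genes with the lowest ratio 6 had a symbol. CXCL8, which attracts neutrophils, stood at 12.8 at 8 weeks and 201 at 4 weeks and was lower at 8 weeks by 15.7-fold (11.9 to 20.9). Its UMIs came from 12 of 826 macrophages at 8 weeks and 13 of 129 at 4 weeks. GPNMB, a glycoprotein of lysosomes, stood at 20.1 at 8 weeks and 136 at 4 weeks and was lower by 6.77-fold (5.23 to 8.79), with 27 and 18 macrophages holding its UMIs and 50.4% and 25% of them in 1 cell. MYB, a transcription factor of blood progenitors, stood at 21.7 at 8 weeks and 143 at 4 weeks, lower by 6.61-fold (5.14 to 8.49). ZC3H12C, an RNase that limits inflammatory transcripts in mice, stood at 45.4 at 8 weeks and 270.2 at 4 weeks, lower by 5.96-fold (4.99 to 7.11). H1-2, a linker histone, stood at 53.9 at 8 weeks and 263 at 4 weeks, lower by 4.88-fold (4.11 to 5.78), and FILIP1, a filamin-binding protein, at 20.6 at 8 weeks and 108 at 4 weeks, lower by 5.25-fold (3.99 to 6.89). All 6 were lower at 8 weeks in all other barcodes too, where the ratio of 8 over 4 weeks was 0.109 for CXCL8, 0.208 for FILIP1, 0.305 for H1-2, 0.497 for GPNMB, 0.502 for MYB and 0.674 for ZC3H12C. With each macrophage thinned to 1000 UMIs the log2 ratio was -3.23 for CXCL8 and -1.88 for ZC3H12C.

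Some digestive and uptake genes were lower at 8 weeks, where 9.19% of all genes measured were at least 2-fold lower and 11.4% higher. In the lysosome list 5 of 34 measured genes were at least 2-fold lower and 0 higher, with a list median log2 ratio of -0.16. In all other barcodes 4 of the 34 were lower and 2 higher. CTSB, cathepsin B, stood at 489 at 8 weeks and 1046 at 4 weeks, lower by 2.14-fold (1.99 to 2.3), and its thinned share was 34% (30.8 to 37.4) at 8 weeks and 50.4% (41.5 to 59.3) at 4 weeks. All other barcodes held CTSB at thinned shares of 6.12% and 6.74%. CTSD, cathepsin D, stood at 117 at 8 weeks and 262 at 4 weeks, lower by 2.23-fold (1.93 to 2.59). MITF, a factor that drives lysosomal genes, stood at 85 at 8 weeks and 223 at 4 weeks, lower by 2.62-fold (2.22 to 3.08). In the uptake list 7 of 24 were at least 2-fold lower and 3 higher, against 5 and 2 in all other barcodes. MERTK was lower by 2.19-fold (1.85 to 2.58), CD36 by 2.41-fold (2.04 to 2.84), DOCK2 by 2.3-fold (1.94 to 2.72) and ELMO1 by 2.14-fold (1.92 to 2.37). ABCA1, the exporter of cholesterol, stood at 126 at 8 weeks and 284 at 4 weeks, lower by 2.26-fold (1.96 to 2.6), and SLC40A1 was lower by 2.58-fold (2.11 to 3.15). Several of these ratios came under 2-fold under another setting. With each macrophage thinned to 1000 UMIs the log2 ratio was -0.93 for CTSB, -0.64 for CTSD, -0.86 for ABCA1 and -0.99 for SLC40A1, and with scaling by median of ratios it was -0.97 for ELMO1. Among other lysosomal genes, TPP1 was at -1.06 as reported and -0.84 when thinned. ACP5 was at -1.83 as reported and 1.23 when thinned, and 22 of its 33 UMIs at 4 weeks came from 1 macrophage. CTSL, cathepsin L, was at -1.55 and stayed between -1.84 and -1.13 over the settings tried.

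Signalling and transcription genes were lower for some members. In the transcription factor list 6 of 29 were at least 2-fold lower and 1 higher, against 7 and 0 in all other barcodes. ZEB2, a repressor that guards macrophage identity in mice, stood at 276 at 8 weeks and 647 at 4 weeks in the macrophages, lower by 2.34-fold (2.13 to 2.57), against 228 and 150.3 in all other barcodes. IRF8, a factor of myeloid development, stood at 39.5 at 8 weeks and 95.9 at 4 weeks, lower by 2.43-fold (1.89 to 3.11). CEBPD, a factor of the acute phase, was the listed gene that was higher, at 342 at 8 weeks and 165 at 4 weeks, by 2.08-fold (1.77 to 2.45). TLR2, the sensor of bacterial lipopeptides, stood at 155 at 8 weeks and 353 at 4 weeks, lower by 2.27-fold (2.0 to 2.58), with thinned shares of 14.5% (12.2 to 17.1) and 28.7% (21.1 to 37.3). NFKBIA and NFKBIZ, feedback inhibitors and cofactors of NF-kappa-B, were lower by 2.21-fold (1.96 to 2.48) and 2.45-fold (2.11 to 2.83). In the early-response and heat-shock list 1 of 29 genes was at least 2-fold higher and 2 lower, with a median log2 ratio of 0.20 in the macrophages, against -0.34 in all other barcodes. JUND, an early-response factor, was higher by 2.2-fold (1.97 to 2.45). CSF1 was lower by 2.17-fold (1.76 to 2.68), and IL1A by 1.93-fold (1.69 to 2.19), which is under 2-fold. When thinned, the log2 ratio came under 2-fold for IRF8 at -0.83, CEBPD at 0.99, NFKBIA at -0.62, JUND at 0.93 and CSF1 at -0.95.

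**Figure D3:**
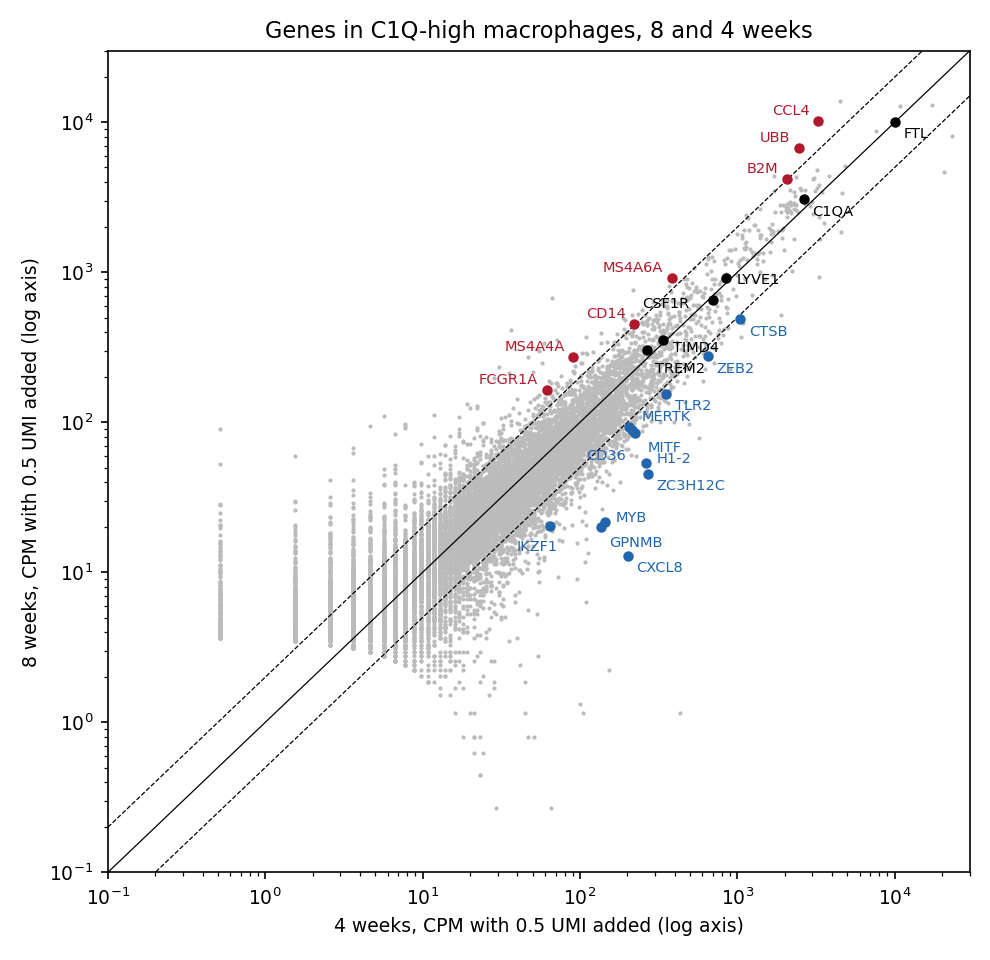
Each point is 1 of the 12980 measured genes in the C1Q-high macrophages, with its CPM at 8 weeks (vertical, log axis) against 4 weeks (horizontal, log axis), 0.5 UMI added; the solid line is equality and the dashed lines are 2-fold. CCL4, MS4A6A and FCGR1A lie above the upper line, and CXCL8, GPNMB and ZEB2 below the lower one, while CSF1R, LYVE1 and C1QA lie near equality.

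Several defining macrophage genes stood close to equality between the stages. CSF1R had a ratio of 0.935-fold (0.861 to 1.02), LYVE1 of 1.09-fold (1.01 to 1.17), TIMD4 of 1.06-fold (0.94 to 1.19), GPR34 of 1.0-fold (0.893 to 1.13) and TREM2 of 1.14-fold (0.998 to 1.3). FTL had a ratio of 1.01-fold (0.986 to 1.03). Of the pan-macrophage list 1 gene was at least 2-fold higher, CD14, and 2 were at least 2-fold lower, MERTK and MS4A7. The list medians on the log2 scale were -0.13 for pan-macrophage genes, -0.24 for resident and scavenger genes, 0.19 for the microglia list and 0.09 for complement, against a median over all genes of -0.03. Over all genes measured 11.4% were at least 2-fold higher and 9.19% lower. The resident and scavenger list of 16 had 1 gene higher and 4 lower, and the lipid list of 16 had 2 and 4. The microglia list of 13 had 2 and 0, and the complement list of 15 had 3 and 1. The 2 microglia genes were TMEM119 and OLFML3, which were lower in the macrophages than in all other barcodes. Their log2 ratios were 2.19 and 2.25 as reported, and 1.15 and 0.83 without macrophages carrying markers of another cell type. Without those macrophages C7 went from 2.45 to 0.61, C1R from 1.86 to 1.26 and VSIG4 from 1.15 to 1.22 in the complement list. The cytokine receptor list of 26 had 1 gene higher and 3 lower, the innate sensors of 20 had 1 and 3, and the antigen presentation list of 13 had 1 and 0. The interferon list of 18 had 2 and 3, the chemokine list of 18 had 3 and 2, and the growth factor list of 25 had 5 and 2. IRF7, a factor of the interferon response, stood at 57.6 at 8 weeks and 17.5 at 4 weeks, a ratio of 3.29-fold (2.02 to 5.71), but its log2 ratio was 0.06 with each macrophage thinned to 1000 UMIs. PDGFA, VEGFC, FGF13 and WNT5A, which were lower in the macrophages than in all other barcodes, made up 4 of the 5 growth factors that were higher at 8 weeks. Over the settings tried the log2 ratio came down to 0.49 for WNT5A and 0.76 for VEGFC.

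**Figure D4:**
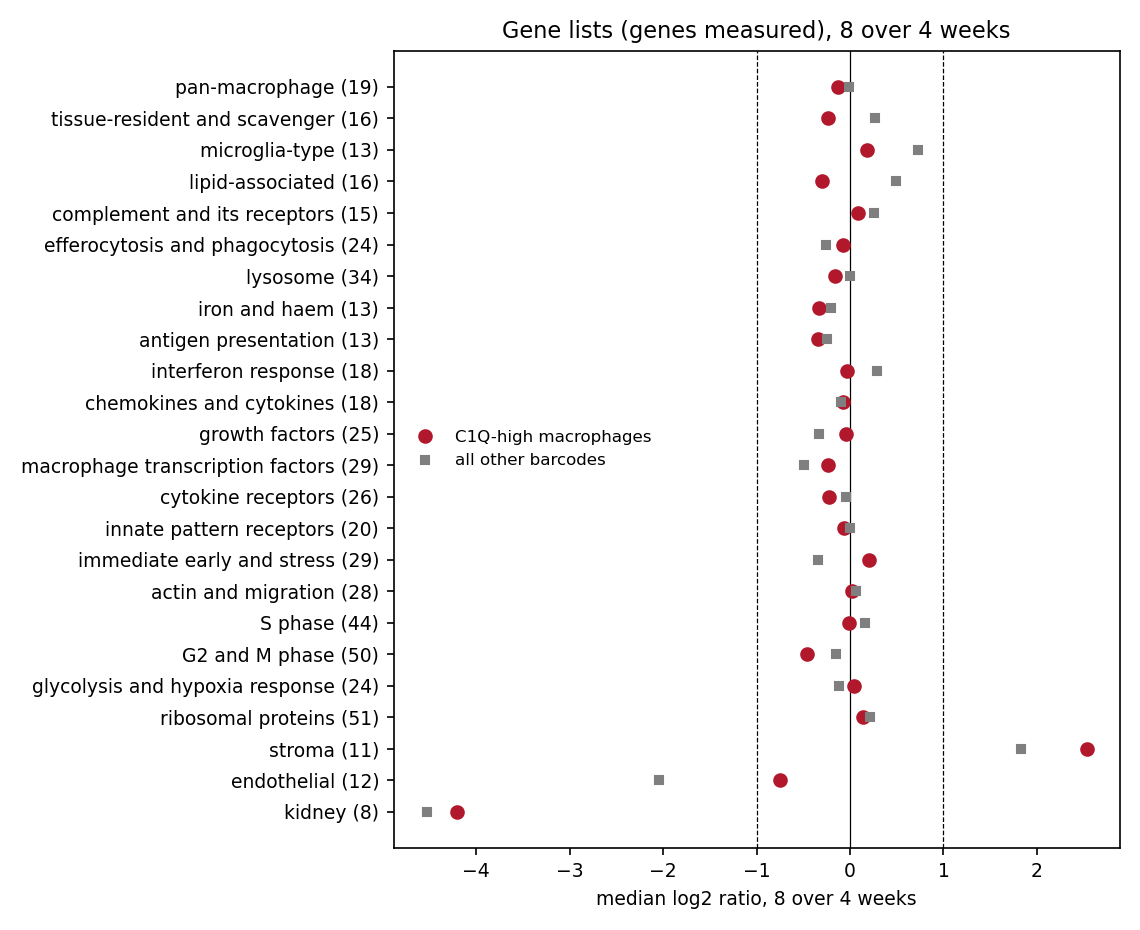
Median log2 ratio of 8 over 4 weeks for each gene list (number of measured genes in brackets) in C1Q-high macrophages (red circles) and in all other barcodes (grey squares); dashed lines are 2-fold. Macrophage lists lie within 0.5 of 0, while the stroma list lies at 2.53 and the kidney list at -4.20 in the macrophages, on the same side as in all other barcodes.

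Cell cycle genes were read in the macrophages with every barcode thinned to 1000 UMIs. At least 5 S phase genes were detected in 81 macrophages (9.81%, 7.86 to 12) at 8 weeks and in 13 (10.1%, 5.48 to 16.6) at 4 weeks, against 15.2% and 13.3% of all other barcodes. At least 5 G2 and M phase genes were detected in 123 macrophages (14.9%, 12.5 to 17.5) at 8 weeks and in 26 (20.2%, 13.6 to 28.1) at 4 weeks, against 21.3% and 22.4% of all other barcodes. MKI67, the proliferation antigen, had thinned shares of 4.72% (3.38 to 6.4) at 8 weeks and 10.1% (5.48 to 16.6) at 4 weeks in the macrophages, against 6.38% and 7.43% in all other barcodes. On the log2 scale the ratio of 8 over 4 weeks had a median of -0.46 over G2 and M phase genes, with 2 of 50 at least 2-fold higher and 4 lower, and of -0.01 over S phase genes.

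**Figure D5:**
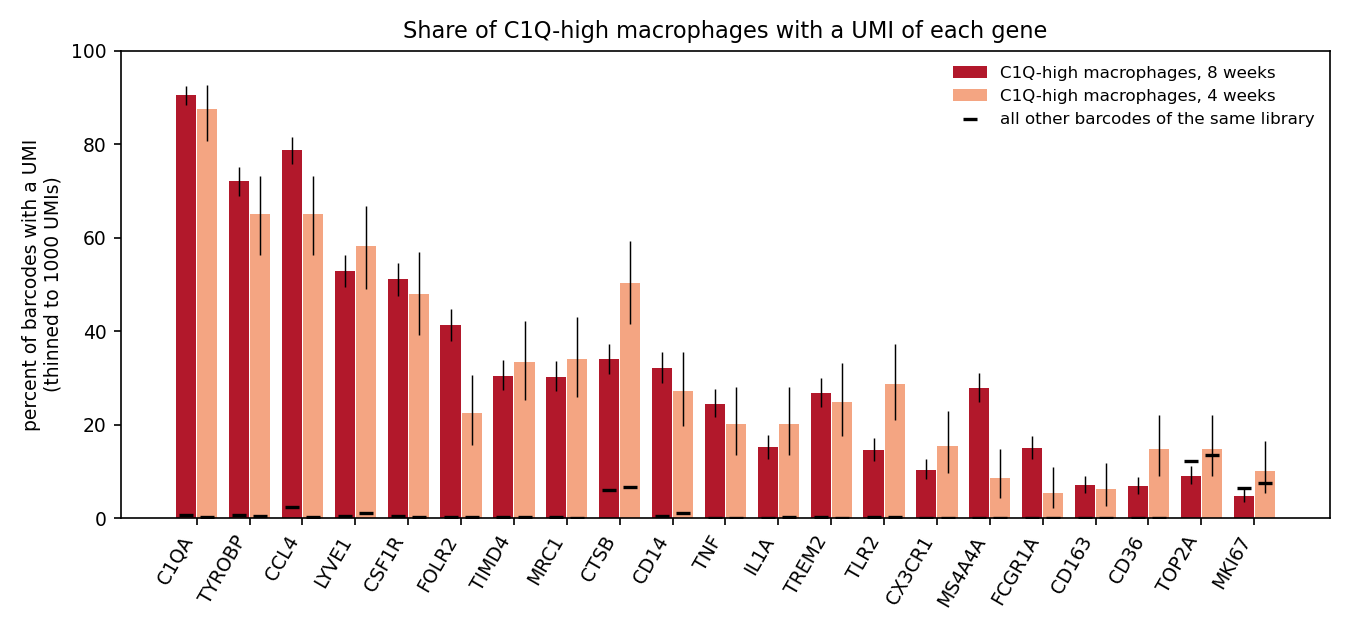
Percent of C1Q-high macrophages with a UMI of each gene after thinning every barcode to 1000 UMIs, at 8 weeks (dark red) and 4 weeks (light red), with exact binomial 95% intervals; black dashes are the same share in all other barcodes of the library. FOLR2, MS4A4A and FCGR1A have higher shares at 8 weeks, TLR2 and CTSB higher shares at 4 weeks, and MKI67 and TOP2A are the 2 genes whose dashes come near the bars.

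Among the macrophages few pairs of genes ran together from cell to cell. Over 406 pairs of 29 genes on thinned counts, Spearman's rho across the 826 and 129 macrophages had medians of 0.03 at 8 weeks and 0.02 at 4 weeks, and 5 pairs exceeded 0.3 in both libraries. The cells of a library share their capture and depth, so these are descriptions. C1QA and C1QB, which chose the cells, gave 0.42 at 8 weeks and 0.32 at 4 weeks, and C1QA and C1QC gave 0.33 and 0.32. CCL4 and LOC106844630 gave 0.72 and 0.71, CCL4 and IER3 gave 0.38 and 0.35, and LYVE1 and LOC106844630 gave 0.34 and 0.40. Of 651 macrophages with a CCL4 UMI at 8 weeks, 195 (30.0%, 26.5 to 33.6) had a TNF UMI, against 7 of 175 (4.0%, 1.62 to 8.07) without CCL4. At 4 weeks 22 of 84 (26.2%, 17.2 to 36.9) had a TNF UMI, against 4 of 45 (8.89%, 2.48 to 21.2) without CCL4. These intervals did not overlap at 8 weeks and overlapped at 4 weeks.

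The resident receptors overlapped less clearly. TIMD4 was detected in 155 of 437 macrophages with LYVE1 (35.5%, 31.0 to 40.2) at 8 weeks, against 97 of 389 (24.9%, 20.7 to 29.5) without it. At 4 weeks the shares were 20 of 75 (26.7%, 17.1 to 38.1) with LYVE1 and 23 of 54 (42.6%, 29.2 to 56.8) without it, so the order was opposite. FOLR2 was detected in 123 of 252 macrophages with TIMD4 (48.8%, 42.5 to 55.2) at 8 weeks, against 218 of 574 (38%, 34 to 42.1) without it. At 4 weeks the shares were 11 of 43 (25.6%, 13.5 to 41.2) with TIMD4 and 18 of 86 (20.9%, 12.9 to 31.1) without it, and the intervals overlapped. Few macrophages held a GPNMB UMI after thinning. Of 9 macrophages with GPNMB at 8 weeks 0 had LYVE1, with an upper bound of 33.3%, and at 4 weeks 4 of 10 did (40.0%, 12.2 to 73.8).

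Single cells decided some sums. At 4 weeks all 59 UMIs of MARCO, a scavenger receptor, came from 1 macrophage with 22006 UMIs and C1q chains at 134 per 10000. The same cell held 10 of 10 UMIs of SPIC, 15 of 22 of CD5L, 14 of 20 of CD209, 14 of 132 of GPNMB and 1 of 819 of LYVE1. At 8 weeks MARCO had 0 UMIs. All 42 UMIs of GZMA, a granule protease of lymphocytes, at 8 weeks came from 1 macrophage with 13796 UMIs. CYP17A1, a steroidogenic enzyme, had 319 UMIs at 4 weeks, of which 55.8% came from 1 macrophage. Another macrophage held 112 more. The C1q chains of these cells stood at 23.1 and 12.3 per 10000. A single macrophage held 111 of the 129 AMH UMIs at 4 weeks.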

How the data were processed

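Single-cell RNA of fetal donkey tissue was measured in 2 libraries, 1 per stage. The authors deposited raw UMI counts, whole numbers for each gene in each barcode, made with Cell Ranger: version 7.1.0 per the file headers, version 2.1.1 per the submitters' processing notes. A DNBelab C kit is named in the labels, although the barcodes look like those of 10x chemistry. The genome build is not given in the sources used here. RefSeq gave symbols for 768 of 21981 locus identifiers. No genome sequence was used.

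Barcodes with fewer than 1000 UMIs were left out, leaving 13172 of 14593 at 8 weeks and 8457 of 8938 at 4 weeks, with 155128130 and 122341903 UMIs over all deposited barcodes. No doublet caller was run. Counts were summed over the macrophages of a library as CPM, UMIs per 1000000, with exact Poisson intervals. Shares have 95% Clopper-Pearson intervals and ratios exact conditional binomial intervals, and all cover counting error only. A gene was measured at 20 or more UMIs over the macrophages of both libraries, and 2-fold calls used sums with 0.5 UMI added. Shares across depths used each barcode thinned once to 1000 UMIs (seed 1). With 1 library a stage there was no test. The computations were tested on simulated data.

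Members and gene lists were chosen with earlier results of these data known. Genes were named from the lists, from the 25 highest ratios over all other barcodes, and from the 12 highest and 12 lowest stage ratios at 100 or more CPM where higher and at least the level of all other barcodes there. Genes without a symbol were counted and not named, except 1 chosen after its values were seen. Alternatives varied the UMI minimum, the C1q limits, cells with markers of other types, the 5% of cells with the most UMIs, shared barcodes, weighting, thinning, scaling and the gene minimum. Python 3.11.15, numpy 2.4.6, pandas 2.3.3, scipy 1.17.1 and matplotlib 3.10.9 were used.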

Additional observations from a re-analysis of the deposited data

Results flagged for a closer look

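CD14, the co-receptor for lipopolysaccharide, differed between the stages in opposite directions in the macrophages and in the rest of the libraries. Its log2 ratio of 8 over 4 weeks was 1.03 in the macrophages and -1.17 in all other barcodes. CD14 stood at 452 at 8 weeks and 221 at 4 weeks CPM in the macrophages, against 3.62 at 8 weeks and 8.12 at 4 weeks in all other barcodes. The thinned share of macrophages with a CD14 UMI was 32.2% (29 to 35.5) at 8 weeks and 27.1% (19.7 to 35.7) at 4 weeks, and these intervals overlapped. The difference between the macrophages and the rest was not tested, since each stage was 1 library. Over the settings tried the log2 ratio in the macrophages ranged between 0.54 and 1.15.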

How the results depend on the processing

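No paired analysis was possible because each stage was 1 library. The macrophage share at 8 weeks was 7.11% with a minimum of 3000 UMIs and 4.96% without macrophages that carried markers of another cell type, against 6.27% as reported. The count of genes at least 2-fold higher at 8 weeks was 844 without those macrophages, 783 with each macrophage thinned to 1000 UMIs, 602 with a minimum of 100 UMIs per gene and 2332 with a minimum of 1 UMI, against 1480. The count of lower genes was 760 when thinned, 465 with a minimum of 100 UMIs and 3875 with a minimum of 1 UMI, against 1193. Fewer or more genes were tested under those minimums by construction, and the cause of the other shifts was not tested. With each gene taken without the macrophage of each library that holds most of its UMIs, a setting chosen after seeing the data, 2174 genes were higher and 834 lower, and this removes more of the smaller 4-week group by construction. The count of genes at least 2-fold higher than in all other barcodes kept within 1.5 times 1481 under all 8 settings of the member rule.

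Of 313 named or listed genes, 99 changed the sign of their log2 ratio under at least 1 setting, most of them under 2-fold as reported, and 8 of these were at least 2-fold different as reported. The log2 ratio of CCL17 was -3.30 with C1q at 20 or more per 10000, -3.32 with all 3 chains detected and -0.95 without its top macrophage. That of BMP6 was 0.18 as a mean over macrophages and 0.13 when thinned. When thinned it was 1.23 for ACP5, -0.80 for FABP4, -0.016 for IL1R1, 0.49 for NR1H3, 1.41 for USP18 and -0.12 for VCAN. The median of the steroidogenic list was 0.33 without macrophages carrying markers of another type. The cause was not tested. Of the 313 genes, 84 were at least 2-fold different between the stages, 41 of these were so under every setting tried, and 28 came under 2-fold when thinned. CCL4 ranged between 1.59 and 1.82 on the log2 scale, MS4A4A between 1.52 and 2.0, ZEB2 between -1.6 and -1.11, TLR2 between -1.25 and -1.06, CXCL8 between -4.35 and -3.23 and MARCO between -9.48 and -2.49.

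The 4-week levels rest on 129 macrophages, and a gene with few UMIs there has a wide interval. The intervals hold no spread between fetuses, and gestational stage, tissue and library cannot be told apart.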

Other observations

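Of 12 endothelial markers, FLT1, PLVAP and EGFL7 were each held by many macrophages, and PECAM1 and CDH5 by fewer. The other markers of the list are not given singly. Of the 12, 0 were at least 2-fold higher than in all other barcodes in both libraries and 3 at least 2-fold lower. Against the leukocytes lacking C1Q, 3 were at least 2-fold higher in both libraries and 0 lower. FLT1, a receptor for VEGF, stood at 107 at 8 weeks and 146 at 4 weeks CPM in the macrophages, in 287 and 57 cells, against 29.5 and 162 in all other barcodes and 5.3 and 18.6 in leukocytes lacking C1Q. PLVAP, a protein of vessel fenestrae, stood at 59.4 at 8 weeks and 110.4 at 4 weeks, in 244 and 46 macrophages, against 13.5 and 166 in all other barcodes and 5.97 and 8.08 in the leukocytes. EGFL7, a secreted factor of vessels, stood at 92.3 at 8 weeks and 85.6 at 4 weeks, in 318 and 41 macrophages, against 36.6 and 145 in all other barcodes. PECAM1, an adhesion molecule of vessels, stood at 5.16 at 8 weeks and 18.6 at 4 weeks, in 11 and 4 macrophages. CDH5, the cadherin of vessels, stood at 18 at 8 weeks and 47.4 at 4 weeks, in 37 and 17 macrophages. The part of RNA from other cells in these levels was not tested.

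IL7R, the interleukin 7 receptor, was carried by 133 and 38 macrophages, at 50.9 at 8 weeks and 131 at 4 weeks, and so was lower at 8 weeks by 2.57-fold (2.07 to 3.18). In the leukocytes lacking C1Q it stood at 94.1 and 121, while CD3G, a T cell receptor subunit, stood at 1.07 at 8 weeks and 0 at 4 weeks in the macrophages, against 25.9 and 20.6 in the leukocytes.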
